A study of Mus musculus with 15 samples.

Results

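The change in gene expression of curdlan-stimulated dendritic cells (DCs) between 2 h and 4 h was read from 6 arrays, 3 of cells given curdlan for 4 h and 3 of cells given curdlan for 2 h, out of 15 arrays in all. The 6 arrays were chosen by their labels as those with curdlan and without FK506, and 19937 genes were tested on them. All arrays hold RNA of D1 cells, a long-term DC line from the spleen of C57BL/6 mice that is kept growing with medium containing the growth factor GM-CSF, so every sample comes from 1 line and not from separate mice. Curdlan is a beta-glucan of bacteria and a ligand of dectin-1, and it was given at 10 µg/ml. The remaining groups of 3 arrays serve for comparison: curdlan plus FK506 at 4 h, curdlan plus FK506 at 2 h, and nontreated cells. They also enter the standard errors and p values, since all 15 arrays were fitted together. Each array is labelled a biological replicate, and since nothing says how the cultures were separated, p values measure the spread between these samples. The DC label was checked against its markers. Of 16 conventional DC markers, 2 had a mean level under the lower quartile of gene means (5.28, log2), and the mean level of the list was 9.96 to 9.99 at 4 h and 9.87 to 9.92 at 2 h. The same held for 0 of 9 macrophage markers (9.68 to 9.73 at 4 h and 9.78 to 9.82 at 2 h) and 1 of 7 plasmacytoid DC markers (6.77 to 6.86 at 4 h and 6.83 to 7.0 at 2 h), and for 4 of 8 T cell, 3 of 6 B cell, 5 of 7 NK cell, 4 of 8 neutrophil, 5 of 8 mast cell, 3 of 11 fibroblast and 1 of 3 erythroid markers. Levels of different probe sets are not on a common scale, so the lists are not ranked by them. The check does not separate DCs from macrophages.

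Dectin-1 signals through the kinase Syk, which opens a calcium, calcineurin and NFAT branch and a Card9 and NF-kB branch. Both act on genes within minutes to hours: immediate early transcription factors come first and are short-lived, cytokines and chemokines follow, and in many myeloid cells secreted factors such as type I interferon then act back on the cells and turn on antiviral genes through STAT and IRF factors. FK506 blocks calcineurin and with it the entry of NFAT into the nucleus. The comparison of 4 h with 2 h asks which genes were higher and which lower at the later time. The labels give no time for the nontreated cells. A stage of the response therefore cannot be told apart from a change with time in culture.

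Between 2 h and 4 h more genes rose than fell. A gene was called at a limma adjusted p under 0.05 with a change of at least 1.5-fold, and 556 genes (2.79% of those tested) were higher and 260 (1.3%) lower at 4 h. In all of them the 3 arrays at 4 h did not overlap the 3 arrays at 2 h. As the calls were made on these same arrays, this is no separate support. The median change was 0.85 on the log2 scale among the higher genes and −0.74 among the lower ones, and 196 higher and 37 lower genes changed at least 2-fold. A 4-fold change was reached by 24 higher genes and 0 lower genes. Of the higher genes, 34 (6.12%) had a 2 h mean under the lower quartile, where changes are compressed and no detection call is at hand. The balance of rises and falls depended on the scaling. The median change of all genes was −0.07 as deposited, and −0.26 when each array was centred on the probe sets without a gene symbol, under which 328 genes were higher and 798 lower. Those probe sets are not a fixed reference, since 714 of 11799 were themselves higher at 4 h and 66 lower. Their own median change was 0.04, so centring shifted the genes by more than the typical change of these probe sets. With the mean of those probe sets as a covariate the median was 0.06 and the counts were 471 and 524. Replicate 3 at 2 h was unlike its group (limma array weight 0.119), and without it 499 genes were higher and 290 lower, of which 479 and 243 were among those called with it. Nontreated replicate 1 was unlike its group as well (array weight 0.0781), and nontreated means, given for orientation, include it.

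Antiviral interferon-stimulated genes (ISGs) were the list with the highest share of rising members. The lists were written by hand with earlier results of these data known, so such a ranking is a description. Of 35 measured, 30 were higher at 4 h, 0 were lower and 5 were not called, with a median change of 0.93. Some of these genes encode proteins that sense or block viral nucleic acids. All 35 had a positive change under each of the 3 other scalings tried, and 24 to 30 were called. The promoters of the ISGs that rose most and have an entry in the RefSeq promoter table are shown because this group of genes is known for the interferon-stimulated response element (ISRE), a sequence bound by STAT and IRF factors. The core of this element, GAAA and, after any 2 bases, GAAA again, was searched on both strands from 250 bases before to 50 bases after each start (RefSeq, GRCm38.p6), and capitals mark each match. Ifi205 (chr1:174031706-174032005, minus strand), Ifit3 (chr19:34583279-34583578, plus strand) and Ifit1 (chr19:34640639-34640938, plus strand) each held 2 matches.
Ifi205: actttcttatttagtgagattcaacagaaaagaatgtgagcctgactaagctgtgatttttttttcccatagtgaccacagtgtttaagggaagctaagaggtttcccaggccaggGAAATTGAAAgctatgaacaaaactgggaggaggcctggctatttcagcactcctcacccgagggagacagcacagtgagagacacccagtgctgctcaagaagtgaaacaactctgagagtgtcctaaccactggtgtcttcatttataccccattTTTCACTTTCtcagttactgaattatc
Ifit3: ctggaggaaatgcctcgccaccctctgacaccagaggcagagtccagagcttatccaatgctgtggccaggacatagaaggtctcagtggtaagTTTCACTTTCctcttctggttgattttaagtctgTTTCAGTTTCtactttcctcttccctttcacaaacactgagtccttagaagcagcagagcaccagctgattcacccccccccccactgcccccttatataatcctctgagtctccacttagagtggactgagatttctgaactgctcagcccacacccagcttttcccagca
Ifit1: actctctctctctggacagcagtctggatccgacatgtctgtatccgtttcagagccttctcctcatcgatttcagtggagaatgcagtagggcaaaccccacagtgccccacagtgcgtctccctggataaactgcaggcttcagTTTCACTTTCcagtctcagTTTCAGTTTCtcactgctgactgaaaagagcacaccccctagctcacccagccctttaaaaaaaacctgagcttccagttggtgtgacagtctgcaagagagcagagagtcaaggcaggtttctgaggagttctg
Ifit2, the other gene of the 4 chosen, has 2 promoters in the table, and 0 of them held these letters. Over the list, 16 of 36 promoters of 27 genes held a match (44.4%), against 3.27% of 19114 promoters of all tested genes. The share was 9.39% among promoters of the genes higher at 4 h and 3.37% among those of the genes lower at 4 h. A match is a description of the letters and was not tested as a site.

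Ifi205, a member of the interferon-inducible HIN-200 family of DNA-binding proteins, had log2 levels of 10.72, 10.69 and 10.64 at 4 h, against 6.98, 6.91 and 6.32 at 2 h. It thus differed 15.4-fold (3.94 ± 0.15, log2 change ± SE of the fit, n = 3 arrays a group, as for every change below, limma adjusted p = 1.29e-09), more than any other gene, and its nontreated mean was 5.53. Ifit3, whose product binds viral RNA together with Ifit1 and Ifit2, had levels of 10.63, 10.53 and 10.55 at 4 h, against 7.59, 7.50 and 7.15 at 2 h (3.15 ± 0.13). Its 2 h arrays all lay under the nontreated mean of 7.92, and its 4 h arrays all lay above it. Ifit1 (2.83 ± 0.16), Ifit2 (2.53 ± 0.12) and Mx2 (2.49 ± 0.17), a dynamin-like antiviral GTPase, rose over 5-fold as well. Rsad2, which encodes viperin, had levels of 10.05, 9.99 and 9.98 at 4 h, against 7.70, 7.53 and 7.38 at 2 h (2.47 ± 0.11), with a nontreated mean of 6.41. Slfn5 (2.11 ± 0.09), Slfn1 (1.93 ± 0.10), Oasl1 (1.79 ± 0.08), Mx1 (1.55 ± 0.17), Oas3 (1.54 ± 0.07) and Oas2 (1.39 ± 0.07) followed. The RNA sensors Ddx58, which encodes RIG-I, Dhx58 and Ifih1 rose by 0.93, 0.99 and 0.69, and Usp18, a brake on interferon receptor signalling, by 0.80. The smallest called rise was that of the RNA-editing enzyme Adar (0.67 ± 0.04), while Isg20 (0.57 ± 0.04) and Sp100 (0.57 ± 0.14) fell just short of the fold threshold and Pml, Bst2 and Ifi35 were at 0.33, 0.29 and 0.21. Isg20 was called without 4 h replicate 1 (0.59) and Sp100 without 2 h replicate 1, 2 h replicate 2 or 4 h replicate 2 (0.61 to 0.66). Without curdlan 2 h replicate 3, 30 members were called higher. Adar (0.48) and Ifih1 (0.50) were not called after centring, and Ifih1 not with the covariate (0.54). Of the 30 called ISGs, 21 had a 2 h mean under the nontreated mean, and all 30 had a 4 h mean above it. Without nontreated replicate 1, a choice made after seeing the data, these counts were 25 and 30. Their median level was 10.11 at 4 h and 8.80 at 2 h, with 8.83 in nontreated cells, and as the same 2 h arrays enter both differences a low 2 h value counts in each.

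The guanylate-binding proteins (GBPs) and immunity-related GTPases (IRGs), which attack vacuoles that hold microbes, rose in 6 of 9 measured cases and fell in 0, with a median change of 0.69. Gbp5 had levels of 9.32, 9.23 and 9.23 at 4 h, against 6.89, 6.83 and 6.64 at 2 h (2.47 ± 0.10), and Irgm1 (1.45 ± 0.13) and Gbp4 (1.06 ± 0.08) also rose. Gbp8, Gbp11 and Iigp1 rose by 0.72, 0.69 and 0.61, and these 3 were not called after centring on the unnamed probe sets (0.53, 0.50 and 0.42). Iigp1 also lost its call without 2 h replicate 1 (0.58) or 4 h replicate 2 (0.55). Gbp7 ran the other way (−0.41 ± 0.05) and was called, as lower, after centring (−0.59). Among 26 genes of type I interferon signalling and IRF or STAT factors, 6 rose and 0 fell, and 6 were called higher under each other scaling too, although the median of the list (0.18) turned to −0.01 after centring. Ikbke, a kinase that activates IRF factors, had levels of 9.91, 9.97 and 9.89 at 4 h, against 7.17, 7.15 and 7.23 at 2 h (2.74 ± 0.08, adjusted p = 1.07e-10). Irf7, the factor that amplifies type I interferon production, had levels of 8.71, 8.85 and 8.71 at 4 h, against 7.26, 7.09 and 7.17 at 2 h (1.58 ± 0.08), and both groups kept clear of each other by more than 1 log2 unit. Its nontreated mean of 7.19 lay within the range of the 2 h arrays. Stat2 (1.41 ± 0.04) and Irf9 (0.88 ± 0.09), which act on the ISRE, Stat5a (1.14 ± 0.05) and Irf8 (0.81 ± 0.04) rose too. The interferon genes themselves were not called. Ifnb1 had levels of 5.23, 5.0 and 4.92 at 4 h, against 5.25, 5.05 and 5.44 at 2 h (−0.20 ± 0.14, adjusted p = 0.309), so that the groups overlapped near the lower quartile of levels, and Ifna4 was at −0.24. The receptor genes Ifnar1 (0.47) and Ifnar2 (0.09) were not called.

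**Figure D1:**
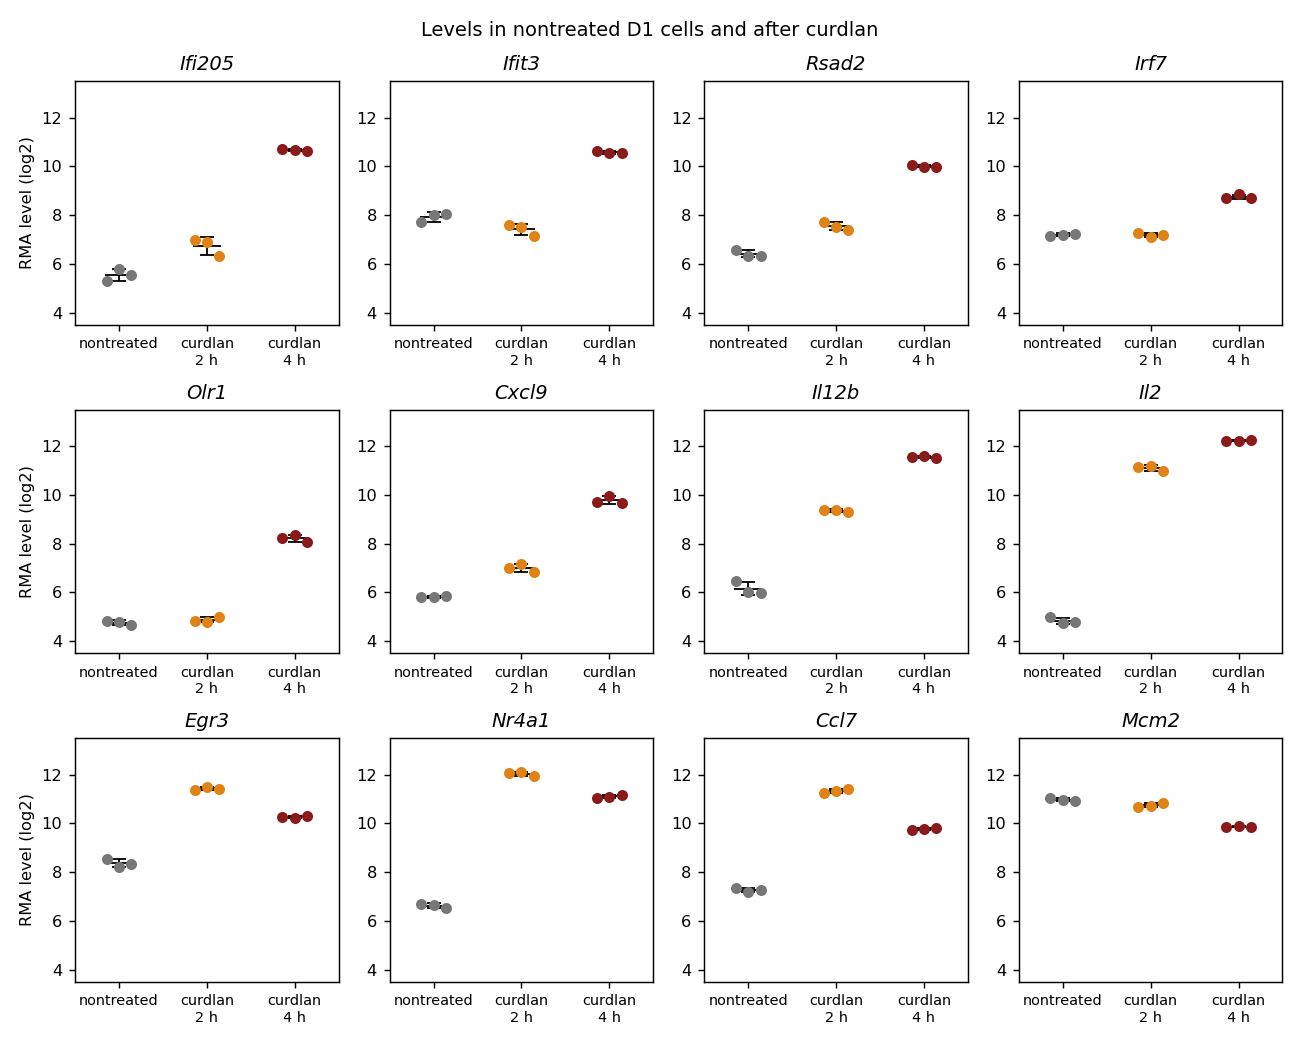
RMA level on a log2 scale (vertical axis) for 12 genes, in nontreated cells and after curdlan for 2 h and 4 h, each point being an array and each bar the mean ± SD (n = 3). Ifit3 and Irf7 stood at or under the nontreated level at 2 h and above it at 4 h, Il12b and Il2 rose at each step, and Egr3, Nr4a1 and Ccl7 were highest at 2 h.

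Several rising genes lay next to each other in the genome. In the gene order of the RefSeq table, 17 runs of at least 3 called genes, with at most 1 uncalled tested gene between members, held 64 higher genes, and 0 runs held lower genes. The lower set was also smaller, at 260 genes against 556, and no expected number of runs was worked out. The longest were 6 Schlafen genes of 8 tested there (Slfn5, Slfn9, Slfn8, Slfn10-ps, Slfn1 and Slfn3, with changes of 0.69 to 2.11) and 6 of 6 genes from Trim34a to Trim30e-ps1 (0.59 to 2.32), of which Trim30d (2.32 ± 0.15) changed most. The Ifit run (Ifit2, Ifit3, Ifit3b, Ifit1bl2 and Ifit1) spanned 5 of 5 genes with changes of 1.08 to 3.15. A run of 5 held Slc49a4, Hspbap1, Parp14, Dtx3l and Parp9 (0.77 to 1.59), and runs of 4 held Ifi209, Ifi207, Ifi203 and Ifi205 (0.68 to 3.94) and the protease inhibitors Serpinb6b, Serpinb9, Serpinb9b and Serpinb1b (1.16 to 2.58). The other run of 4 held zinc finger genes (0.59 to 1.36), and runs of 3 also included zinc finger and olfactory receptor genes. Ifi207 was not called without curdlan 2 h replicate 3 (0.56), and Trim30e-ps1 not without 2 h replicate 2 (0.55), 4 h replicate 2 (0.57) or 4 h replicate 3 (0.55). Among the genes named here, Slfn3, Trim30e-ps1, Parp9 and Ifi207 were not called after centring (0.50, 0.40, 0.58 and 0.49). Members of such families resemble each other, and signal shared between their probe sets cannot be told apart from a change of each gene.

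Chemokines and cytokines for other leukocytes formed the next block of rising genes. Of 33 chemokines 10 rose, 1 fell and 22 were not called (median 0.13). Cxcl9, an attractant of T cells and NK cells, had levels of 9.72, 9.96 and 9.66 at 4 h, against 6.99, 7.15 and 6.83 at 2 h (2.79 ± 0.08, adjusted p = 1.05e-10), and Cxcl3, an attractant of neutrophils, had levels of 9.21, 9.11 and 9.36 at 4 h, against 6.57, 6.57 and 6.61 at 2 h (2.64 ± 0.11). The 4 h arrays of both lay over 2 log2 units above their 2 h arrays. Cxcl16 (1.65 ± 0.15), Ppbp (1.58 ± 0.11), Ccl9 (1.37 ± 0.07), Cxcl10 (1.18 ± 0.08) and Ccl1 (1.02 ± 0.08) rose, and so did Ccl24, Ccl22 and Ccl5 (0.82, 0.70 and 0.65). The 10 rising chemokines all stood above nontreated cells at 2 h already. Ccl7, which draws monocytes, ran the other way, with levels of 9.72, 9.77 and 9.80 at 4 h, against 11.23, 11.34 and 11.40 at 2 h (−1.56 ± 0.05, adjusted p = 4.91e-10), still above its nontreated mean of 7.26. Its neighbour in function Ccl2 was at −0.51 ± 0.05, and Ccl3 (−0.01), Ccl20 (0.00) and Cxcl2 (0.21) were not called. After centring Ccl22 (0.52) and Ccl5 (0.47) were not called, Ccl2 was called lower (−0.70), and the list median turned to −0.06.

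Of 46 interleukins and growth factors 9 rose, 2 fell and 35 were not called (median −0.04). Il12b, the subunit shared by IL-12 and IL-23, had levels of 11.55, 11.58 and 11.51 at 4 h, against 9.38, 9.38 and 9.29 at 2 h (2.19 ± 0.10), a 4.57-fold difference, and Il23a had levels of 11.75, 11.74 and 11.78 at 4 h, against 10.77, 10.82 and 10.72 at 2 h (0.99 ± 0.14). Il12a, the other subunit of IL-12, was not called (−0.23 ± 0.16), and Ebi3 rose by 0.80 ± 0.04. Il2 had levels of 12.22, 12.23 and 12.27 at 4 h, against 11.15, 11.20 and 10.97 at 2 h (1.13 ± 0.08), Csf2, which encodes GM-CSF, rose by 1.25 ± 0.14, and Csf1 by 0.92 ± 0.07. Il15, a survival factor of NK cells and memory T cells, had levels of 6.54, 6.59 and 6.69 at 4 h, against 5.39, 5.43 and 5.29 at 2 h (1.24 ± 0.07), with its 2 h arrays under the nontreated mean of 5.64. Il6 (0.93 ± 0.08) and Tslp (0.80 ± 0.11) rose at levels under the lower quartile, and Il10 (0.36 ± 0.06) stayed under the fold threshold. The growth factors Hbegf and Tgfb3 fell, Hbegf to 8.91, 8.94 and 9.0 at 4 h, against 10.28, 10.24 and 10.27 at 2 h (−1.31 ± 0.07), and Tgfb3 by 0.94 ± 0.06 on the log2 scale. Both were under their nontreated means at 4 h.

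In the interleukin-1 family 4 of 17 genes rose and 0 fell (median 0.28), while 4 rose and 1 fell under each other scaling. Il1f9, which encodes IL-36 gamma, had levels of 8.69, 8.71 and 8.70 at 4 h, against 5.65, 5.56 and 5.81 at 2 h (3.03 ± 0.12), an 8.16-fold difference. The receptor antagonist gene Il1rn (1.59 ± 0.07), the inflammatory caspase gene Casp4 (1.18 ± 0.11) and Il1a (0.88 ± 0.12) rose, while Il1b, at 12.94, 12.92 and 12.92 at 4 h, against 12.53, 12.57 and 12.29 at 2 h, was not called (0.46 ± 0.19, adjusted p = 0.0875) although the groups did not overlap. Among 16 TNF superfamily ligands 4 rose and 0 fell as deposited (median −0.05). After centring 4 rose and 1 fell, and with the covariate 5 rose and 2 fell (median 0.14). Tnfsf4, which encodes OX40 ligand, had levels of 8.32, 8.34 and 8.54 at 4 h, against 5.99, 6.09 and 6.08 at 2 h (2.35 ± 0.09), and Tnfsf15 (1.86 ± 0.14), Cd70 (1.85 ± 0.08) and Tnfsf10 (0.85 ± 0.14) followed. Tnf was at the same level at both times (13.11, 13.13 and 13.12 at 4 h, against 13.13, 13.20 and 13.03 at 2 h, 0.00 ± 0.05), and Tnfsf9 was at −0.50 ± 0.08.

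Genes of DC maturation and T cell costimulation rose in 10 of 26 cases and fell in 0 (median 0.24). Beside Tnfsf4 and Cd70, the inhibitory ligand genes Pdcd1lg2 (PD-L2, 1.68 ± 0.11) and Cd274 (PD-L1, 1.38 ± 0.06) rose, Cd274 to 11.68, 11.70 and 11.69 at 4 h, against 10.27, 10.23 and 10.42 at 2 h. Slamf1 (1.67 ± 0.08), Cd40 (1.0 ± 0.06), the homing receptor gene Ccr7 (0.95 ± 0.06), Marcks (0.97 ± 0.14), Marcksl1 (0.94 ± 0.25) and Ccl22 complete the 10. Cd80 (0.21 ± 0.05), Cd86 (0.15 ± 0.05) and Cd83 (0.24 ± 0.04), which are common maturation markers, were not called. The list median was positive under every scaling, but after centring it was 0.06, with 9 members higher and 2 lower, and with the covariate 7 were higher and 1 lower. Marcksl1 was not called without 2 h replicate 3 (0.72) or without 4 h replicate 3 (0.87). Among 26 chemokine receptors and adhesion molecules 6 rose and 0 fell (median 0.14). Ccr3 (1.96 ± 0.16), Itgal, the alpha chain of the integrin LFA-1 (1.76 ± 0.05), Cxcr5 (1.25 ± 0.09), Ccr7, Cxcr4 (0.72 ± 0.05) and Cxcr2 (0.64 ± 0.10) were the 6. Cxcr2 was not called without 2 h replicate 3 (0.49), and neither it nor Cxcr4 (0.54) after centring, which turned the median to −0.05.

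Among 36 pattern recognition receptors and adaptors 7 rose and 2 fell (median 0.08). Olr1, a scavenger receptor for oxidised lipoproteins, had levels of 8.22, 8.37 and 8.08 at 4 h, against 4.83, 4.80 and 4.99 at 2 h (3.35 ± 0.09, adjusted p = 2.88e-11), and its 2 h arrays stood near the nontreated mean of 4.76. These 2 h levels lie under the lower quartile, so the size of the difference is uncertain. Ly96, the partner of Tlr4 in sensing endotoxin (1.37 ± 0.26), Cd36 (1.07 ± 0.12), Nod2 (0.78 ± 0.05), Ticam2 (0.76 ± 0.09), Tlr4 (0.71 ± 0.14) and the C-type lectin Clec4d (0.68 ± 0.16) rose. Ly96 was not called with the unnamed probe sets as a covariate (0.50), and Tlr4 (0.53) and Clec4d (0.57) not without 2 h replicate 3. After centring 4 genes of the list were higher and 3 lower. The lectin Cd209a fell, with levels of 8.32, 8.33 and 8.39 at 4 h, against 9.27, 9.27 and 9.27 at 2 h (−0.92 ± 0.07), and the inflammasome adaptor Pycard fell by 0.59 ± 0.06 but was not called without 2 h replicate 2 or 4 h replicate 1 (−0.55 in both). The dectin-1 gene Clec7a was at 10.63, 10.60 and 10.59 at 4 h, against 10.40, 10.38 and 10.40 at 2 h (0.22 ± 0.05), a small difference without overlap that stayed under the fold threshold. Of 25 genes of the dectin-1, calcium and calcineurin pathway (median −0.08), Syk rose (0.67 ± 0.06), Rcan1, an NFAT-driven inhibitor of calcineurin, fell (−0.80 ± 0.06) and Vav3 fell (−0.66 ± 0.06). Syk was not called after centring (0.49), which called 0 genes of the pathway higher and 4 lower, Card9 among them. Nfatc2 (−0.35 ± 0.04), Nfatc1 (−0.09 ± 0.05) and Card9 (−0.53 ± 0.04) were not called as deposited.

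NF-kB subunits and feedback genes rose in 6 of 25 cases and fell in 1 (median 0.28), and after centring 2 rose and 2 fell. The risers were Birc2 (1.12 ± 0.14), Map3k14, the kinase of the noncanonical branch (0.96 ± 0.04), Tnip1 (0.72 ± 0.04), Cflar (0.67 ± 0.11), Nfkbib (0.66 ± 0.05) and Nfkb2 (0.61 ± 0.06), and Cflar was not called without curdlan 2 h replicate 3 (0.55). Nfkbiz, a nuclear cofactor of NF-kB, fell, with levels of 10.58, 10.61 and 10.57 at 4 h, against 11.26, 11.29 and 11.31 at 2 h (−0.70 ± 0.05). Tnfaip3 (0.16), Nfkbia (−0.11) and Rela (0.00) were not called. Among 13 SOCS and cytokine signalling inhibitors (median 0.13) Il1rn rose and Socs5 fell (−0.74 ± 0.06), while Socs1 (−0.10) and Socs3 (−0.33) were not called.

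Immediate early transcription factors moved the opposite way. Of 30 measured, 0 rose, 14 fell and 16 were not called, with a median change of −0.54, and 12 to 19 fell under the other scalings. Without curdlan 2 h replicate 3 the count of falling members was 16. Egr3, a zinc finger factor induced by NFAT in T cells, had levels of 10.25, 10.23 and 10.30 at 4 h, against 11.37, 11.49 and 11.42 at 2 h (−1.17 ± 0.07, adjusted p = 7.29e-08), so it had lost part of its rise over the nontreated mean of 8.36. Nr4a1, an orphan nuclear receptor, had levels of 11.05, 11.09 and 11.16 at 4 h, against 12.05, 12.10 and 11.94 at 2 h (−0.93 ± 0.07), still far above its nontreated mean of 6.63. Ier2 (−1.09 ± 0.07), Fosb (−1.07 ± 0.16), Egr1 (−1.06 ± 0.06), Egr2 (−1.01 ± 0.06), Fosl2 (−0.96 ± 0.08), Klf10 (−0.88 ± 0.08), Btg2 (−0.85 ± 0.05), Myc (−0.81 ± 0.04) and Nr4a2 (−0.74 ± 0.05) fell by similar amounts, and Fos (−0.65 ± 0.12) by less. Fos was not called after repeated quantile normalization (−0.56) or with the covariate (−0.35). Fosb, at 7.01, 7.01 and 6.96 at 4 h, against 8.10, 8.11 and 7.99 at 2 h, was back near its nontreated mean of 6.82. Id1 (−1.0 ± 0.05) and Id3 (−0.63 ± 0.12), inhibitors of helix-loop-helix factors, differed from the rest in that their 2 h means were under their nontreated means (9.78 and 6.89). Id3 was not called without 2 h replicate 3 (−0.56) or 4 h replicate 2 (−0.53). Nr4a3 (0.40 ± 0.09) and Klf6 (0.55 ± 0.07) had positive changes that were not called, and Atf3 (−0.23), Maff (0.06) and Bhlhe40 (−0.08) changed little. Of 31 promoters of 22 of these genes, 4 (12.9%) held the CArG box, the site of serum response factor, against 1.41% of all promoters, and 2 (6.45%) held the cAMP response element TGACGTCA, against 2.38%. The promoter listed for Fosb held neither.

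The phosphatases and inhibitors that end MAP kinase signalling went both ways as deposited, with 1 of 17 higher and 2 lower (median −0.17), while after centring 0 were higher and 6 lower. Dusp7 fell, with levels of 9.68, 9.67 and 9.69 at 4 h, against 11.09, 11.13 and 11.20 at 2 h (−1.46 ± 0.04, adjusted p = 6.98e-11), and Dusp6 fell by 0.69 ± 0.08, both further below nontreated cells at 4 h than at 2 h. Dusp14 rose (0.63 ± 0.08, and 0.57 without curdlan 2 h replicate 3, where it was not called), and Dusp1 (−0.35) and Dusp2 (−0.55) were not called. Dusp2 was called lower without that array (−0.67). Among 18 regulators of RNA decay (median 0.08) Zfp36l2 fell (−0.87 ± 0.05), while Zfp36 (−0.41) and Zc3h12a (−0.36) were not called. The 24 NFAT targets listed from work on T cells held 5 higher and 5 lower genes (median −0.10). Ndrg1 (1.53 ± 0.10), Csf2, Il2, Tnfrsf9 (0.98 ± 0.06) and Ptgs2 (0.60 ± 0.10) made up the rising group and Egr3, Egr2, Nr4a1, Rcan1 and Nr4a2 the falling group.

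Genes of DNA replication and the G1 to S transition fell in 21 of 36 cases and rose in 0, with a median change of −0.59. All 36 changes were negative, also under each of the 3 other scalings, which called 22 to 30 members lower, and 21 were called without curdlan 2 h replicate 3. Mcm2, a subunit of the replicative helicase, had levels of 9.84, 9.90 and 9.86 at 4 h, against 10.68, 10.70 and 10.83 at 2 h (−0.87 ± 0.05, adjusted p = 2.91e-08), and 5 other helicase subunits fell with it: Mcm6 (−0.81 ± 0.04), Mcm4 (−0.81 ± 0.06), Mcm3 (−0.79 ± 0.05), Mcm7 (−0.68 ± 0.05) and Mcm5 (−0.59 ± 0.05). Mcm5 was not called without 2 h replicate 3 (−0.55), 4 h replicate 1 or 4 h replicate 3 (−0.58 in both), and neither Mcm5 nor Mcm7 with the covariate (−0.48 and −0.54). The helicase loaders Cdc6 (−0.81 ± 0.07) and Cdt1 (−0.80 ± 0.04), the polymerase subunit Pold1 (−0.83 ± 0.05), the nucleotide enzymes Tk1 (−0.83 ± 0.05) and Rrm2 (−0.76 ± 0.04), the maintenance methyltransferase Dnmt1 (−0.83 ± 0.04) and its partner Uhrf1 (−0.74 ± 0.04), and the transcription factor E2f1 (−0.74 ± 0.06) fell by close amounts. Pcna (−0.27 ± 0.09) and Tyms (−0.24 ± 0.05) had the same sign and were not called. Of the 21 called genes, 20 had a 2 h mean under the nontreated mean, and their median level was 8.97 at 4 h and 9.75 at 2 h, with 10.04 in nontreated cells. The letters GGCGGGAA, a form of the E2F site, stood in 8 of 40 promoters of 31 of these genes (20%, either strand), against 3.03% of all promoters and 5.99% of the promoters of genes lower at 4 h.

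Genes of mitosis and the spindle had smaller changes of the same sign. All 38 measured were negative under every scaling (median −0.33), but 2 were called: Arhgap19, with levels of 7.47, 7.41 and 7.50 at 4 h, against 9.12, 9.18 and 9.13 at 2 h (−1.68 ± 0.04, adjusted p = 2.28e-11), and Aurkb (−0.70 ± 0.04). Centring on the unnamed probe sets called 13 and the covariate 7. Plk1 (−0.48 ± 0.04), Cdk1 (−0.48 ± 0.04), Top2a (−0.25 ± 0.09) and Mki67 (−0.24 ± 0.05) were not called. Among 20 cell cycle brakes 3 rose and 2 fell as deposited (median −0.16), against 2 and 5 after centring and 1 and 4 with the covariate. Ccng2 (1.22 ± 0.07), Trp53inp1 (0.81 ± 0.09) and Cdkn1b, which encodes the inhibitor p27 (0.69 ± 0.13), rose, and Btg2 and Cdkn2d (−0.69 ± 0.06) fell. Cdkn1b was at 0.54 and not called without curdlan 2 h replicate 3.

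**Figure D2:**
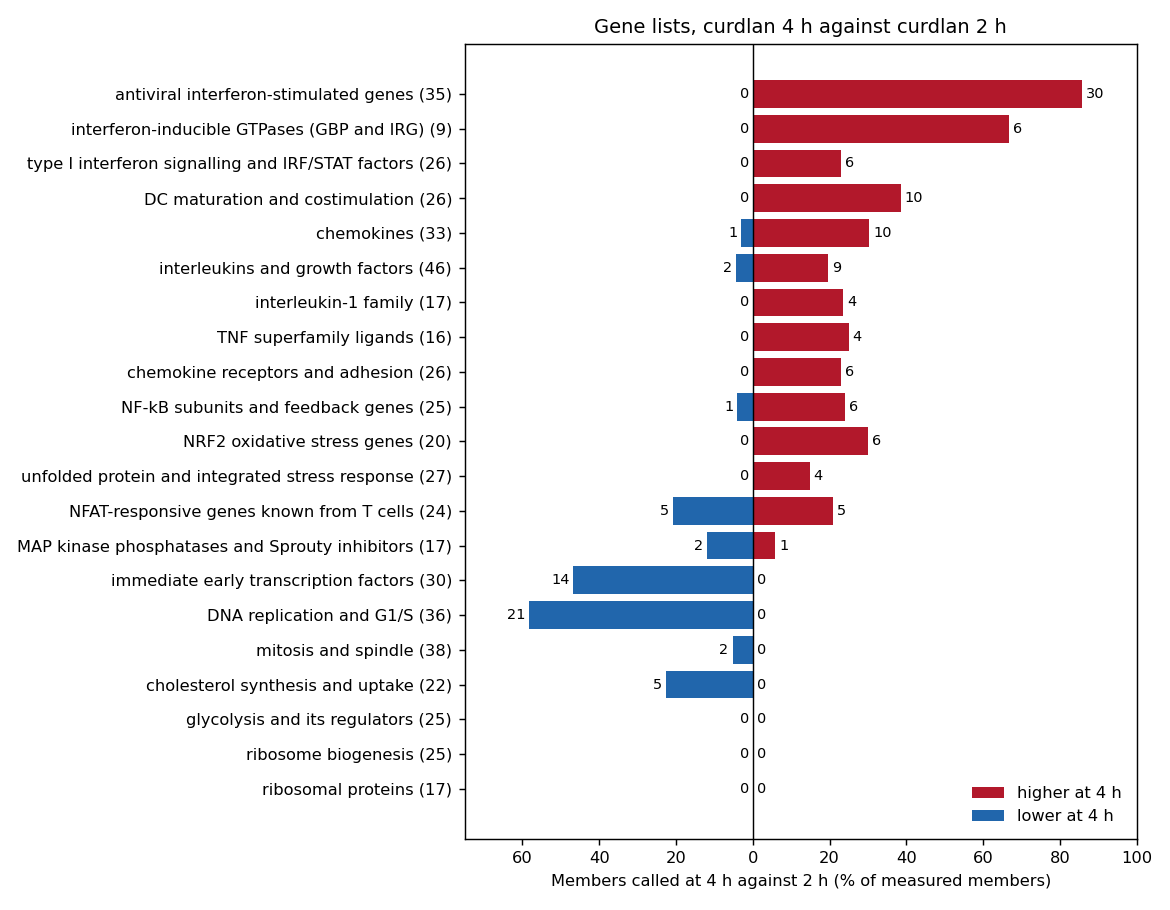
Percentage of the measured members of 21 gene lists (horizontal axis) called higher (red, to the right) or lower (blue, to the left) at 4 h than at 2 h, with the number called beside each bar and the number measured in brackets. Antiviral ISGs (30 of 35) and DNA replication genes (21 of 36) had the highest shares in each direction, against 2.79% and 1.3% of all genes. The lists were written with earlier results of these data known.

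**Figure D3:**
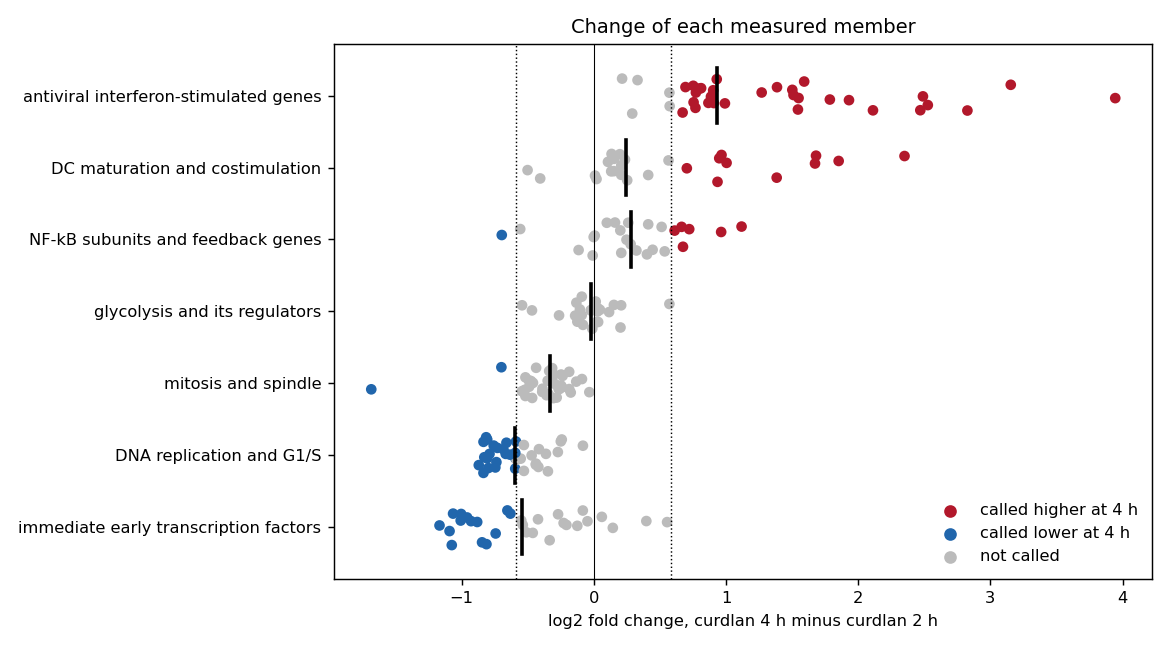
Log2 fold change from 2 h to 4 h (horizontal axis) of each measured member of 7 gene lists, 1 point per gene, with the median as a black bar and the 1.5-fold thresholds dotted. Mitosis genes were shifted to the left but mostly stayed inside the thresholds, and immediate early and replication genes passed the lower one in 14 and 21 cases.

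Genes of the oxidative stress factor NRF2 rose in 6 of 20 cases and fell in 0 (median 0.41), and 5 were called under each other scaling. Hmox1, the haem-degrading enzyme, had levels of 11.24, 11.22 and 11.21 at 4 h, against 9.80, 9.88 and 9.84 at 2 h (1.38 ± 0.07), and the cystine transporter Slc7a11 (1.13 ± 0.11), Nqo1 (1.12 ± 0.08), Gstm1 (1.08 ± 0.09), Srxn1 (0.95 ± 0.06) and Gclm (0.60 ± 0.06) rose. All 6 stood above nontreated cells at 2 h already. Gclm was not called under any other scaling, nor without 2 h replicate 3 or 4 h replicate 1 (0.56 in both). Of 27 genes of the unfolded protein and integrated stress responses 4 rose and 0 fell (median 0.06): Trib3 (1.37 ± 0.11), Chac1 (1.15 ± 0.06), Ddit3 (0.69 ± 0.05) and Herpud1 (0.63 ± 0.04), of which Ddit3 (0.50) and Herpud1 (0.45) were not called after centring. The chaperone gene Hspa5 (0.03) was not called. The first 3 are known from the branch that runs through Atf4 (0.28, not called). The 16 heat shock chaperones (median 0.07) went both ways as deposited, with Hspa1a (−0.88 ± 0.13) and Hspa4l (−0.66 ± 0.05) lower and Dnajb4 (0.65 ± 0.12) and Hsf2 (0.59 ± 0.12) higher, and the last pair was not called without curdlan 2 h replicate 3 (0.53 and 0.44), nor Hsf2 without 4 h replicate 1 (0.57). After centring 0 chaperones were higher and 3 lower, and with the covariate 0 and 2 (median −0.13).

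Cholesterol synthesis and uptake genes fell in 5 of 22 cases and rose in 0 (median −0.42), and 12 fell after centring. Hmgcs1, an early enzyme of the pathway, had levels of 9.90, 9.87 and 9.82 at 4 h, against 10.78, 10.79 and 10.75 at 2 h (−0.91 ± 0.08), and Stard4 (−0.88 ± 0.06), Insig1 (−0.84 ± 0.08), Dhcr7 (−0.82 ± 0.05) and Lss (−0.69 ± 0.04) fell. Of 14 efflux and oxysterol genes (median −0.15) Ch25h, which makes the oxysterol that restrains this pathway, fell with levels of 10.28, 10.31 and 10.29 at 4 h, against 11.33, 11.34 and 11.47 at 2 h (−1.09 ± 0.07), above a nontreated mean of 8.78, and the exporter Abca1 fell by 0.83 ± 0.07. Among 24 inducible metabolic enzymes of activated myeloid cells and related genes 5 rose and 0 fell (median 0.11). Nos2, the inducible nitric oxide synthase, had levels of 8.22, 8.30 and 8.10 at 4 h, against 6.57, 6.48 and 6.97 at 2 h (1.54 ± 0.15), and Acod1, which makes itaconate (1.47 ± 0.09), Lcn2 (1.05 ± 0.10), Slc1a2 (0.95 ± 0.06) and Nampt (0.74 ± 0.13) rose, Nampt not with centring (0.55) or the covariate (0.32). Of 25 glycolysis genes limma called 0 (median −0.02). In this list 12 had an unadjusted p under 0.05, and the share of all genes under it was not worked out. Slc2a6 (0.57 ± 0.05) and Pfkm (−0.54 ± 0.04) were at the ends of the range, with Hk2 (0.15), Ldha (−0.01) and Hif1a (−0.14) between. After centring 2 glycolysis genes fell. Slc2a6 was called higher without 2 h replicate 3 (0.62) or 4 h replicate 3 (0.59). Of 21 TCA cycle and mitochondrial enzymes (median −0.05), Idh1 fell (−0.81 ± 0.11).

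Of 18 prostaglandin and leukotriene genes 3 were higher and 3 lower as deposited (median −0.18), against 1 and 4 after centring, 1 and 3 with the covariate and 2 and 3 after repeated quantile normalization. The receptor Ptger2 (0.90 ± 0.09), the receptor Ptger4 (0.62 ± 0.11) and the synthase Ptgs2 rose, and the receptor Ptger3 (−0.98 ± 0.06), the degrading enzyme Hpgd (−0.92 ± 0.06) and the phospholipase Pla2g4a (−0.62 ± 0.06) fell. Ptger4 (0.57) and Ptgs2 (0.48) were not called without curdlan 2 h replicate 3, nor Ptgs2 without 4 h replicate 2 and Pla2g4a without 4 h replicate 3 (−0.58). Of 24 matrix proteases and inhibitors (median −0.06) Mmp13 (0.90 ± 0.08), Mmp19 (0.81 ± 0.05) and Plat (0.75 ± 0.09) rose and Plau (−0.98 ± 0.05) and Adamts6 (−0.85 ± 0.14) fell. The death receptor Fas had levels of 8.60, 8.58 and 8.66 at 4 h, against 6.87, 6.94 and 6.78 at 2 h (1.75 ± 0.13), and with the BH3-only gene Bcl2l11 (0.75 ± 0.07) was 1 of 2 called among 21 BCL2 family and death regulators (median 0.03). Bcl2l11 was not called after centring (0.56), when 2 other members fell, and likewise Plat (0.56). Tap1 (0.60 ± 0.05) and Tapbpl (0.68 ± 0.04) rose among 16 genes of the class I pathway (median 0.17) and were not called after centring (0.41 and 0.49), nor Tap1 without 2 h replicate 1, 2 h replicate 2 or 4 h replicate 2 (0.57 in each), and Ciita, the master regulator of class II genes, rose among 11 class II genes (median 0.06) by 0.64 ± 0.04 but was not called with centring (0.45) or the covariate (0.56). Ciita stood at 11.26, 11.27 and 11.23 at 4 h, against 10.62, 10.66 and 10.57 at 2 h, with a nontreated mean of 11.27, so the 4 h arrays were back at the nontreated level. Ctsl (0.75 ± 0.06) and Cd63 (1.11 ± 0.09) rose among 25 lysosomal genes (median 0.12), Ctsl not after centring (0.56).

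Other lists held no called gene as deposited. Limma called 0 of the 9 housekeeping genes measured (1 had an unadjusted p under 0.05) and 0 of 17 genes for ribosomal proteins (6 had one), and Actb was at 13.48, 13.47 and 13.48 at 4 h, against 13.48, 13.49 and 13.48 at 2 h (−0.01 ± 0.03). It called 0 of 25 ribosome biogenesis genes (13 below that unadjusted p) and 0 of 25 histone methylation enzymes (19) as well. Of these enzymes Kdm5c (0.57 ± 0.05) and Smyd3 (−0.57 ± 0.06) were at the ends of the range. The share of all 19937 genes below that unadjusted p was not worked out. At a limma adjusted p under 0.05 without the fold threshold, 2465 were higher and 2726 lower. The counts below the unadjusted p are therefore not read as a trait of these lists. Under repeated quantile normalization, centring and the covariate 1, 2 and 1 histone methylation enzymes were lower, Smyd3 each time (−0.59, −0.76 and −0.65). Leaving out 1 array called Smyd3 lower without 2 h replicate 3, 4 h replicate 2 or 4 h replicate 3 (−0.59 to −0.61) and Kdm5c higher without 2 h replicate 1 or 2 (0.60 and 0.59). The signs of the housekeeping, ribosomal and ribosome biogenesis medians (0.07, 0.08 and 0.12) turned negative after centring (−0.12, −0.11 and −0.07). Among the markers of other cell types, Klrk1, listed for NK cells, rose (0.95 ± 0.20, and 0.26 and not called with the covariate), while the other 6 NK markers were not called and 5 of the 7 had mean levels under the lower quartile. The remaining 8 lists of other cell types held 0 called genes of 60.

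Some of the largest changes were in genes of no list. Abhd12b, a gene of the serine hydrolase superfamily, had levels of 8.13, 8.27 and 8.30 at 4 h, against 5.17, 5.10 and 5.07 at 2 h (3.12 ± 0.06, adjusted p = 5.17e-12), and Scnn1g, the gamma subunit of the epithelial sodium channel, had levels of 8.22, 8.19 and 7.97 at 4 h, against 5.32, 5.38 and 5.21 at 2 h (2.82 ± 0.07). In both the 2 h arrays were more than 2 log2 units below the 4 h arrays. The 2 h arrays of Abhd12b were under the lower quartile and those of Scnn1g near it. Olfr1189, annotated as an olfactory receptor gene (2.86 ± 0.16), Ifit3b (2.67 ± 0.17) and the granzyme B inhibitor family gene Serpinb9b (2.58 ± 0.10) rose as well. On the falling side Nxpe5 had levels of 6.50, 6.53 and 6.67 at 4 h, against 8.34, 8.43 and 8.32 at 2 h (−1.79 ± 0.09), the largest fall among all called genes, and had been higher in nontreated cells (9.39). Phlda1 (−1.45 ± 0.10), the kinase gene Itpkb (−1.42 ± 0.08), Bank1 (−1.39 ± 0.07), the adaptor Clnk (−1.33 ± 0.08), Esyt3 (−1.30 ± 0.05), Spin4 (−1.30 ± 0.12), Fry (−1.26 ± 0.05), the Ras regulator Rasa3 (−1.25 ± 0.05) and Megf9 (−1.17 ± 0.06) followed. Phlda1 and Spin4 stood well above nontreated cells at 2 h (7.96 and 7.84 in nontreated cells), while Bank1, Fry and Rasa3 were below them at both times.

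The same step from 2 h to 4 h was compared in cells given curdlan with FK506, which share no arrays with those above, to see which changes were also found with calcineurin blocked. With FK506, 180 genes (0.903%) were higher and 156 (0.782%) lower at 4 h. The genes higher in both were 150, which is 27% of the 556 and 83.3% of the 180, and those lower in both were 100, which is 38.5% of the 260 and 64.1% of the 156. Of the 556 genes that rose with curdlan alone, 521 had a positive change with FK506 (median 0.36), and of the 260 that fell, 255 had a negative one (median −0.50). The difference between both changes was tested as an interaction. It was called positive, a more positive change without FK506, for 212 genes (1.06%) and negative for 34 (0.171%). As the 556 and 260 genes were chosen by their change without FK506, the interaction test and not these counts compares the groups. Across all 19937 genes both changes correlated with r = 0.64, a value over genes, which are not independent replicates.

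Antiviral ISGs were among the genes that differed. With FK506 8 of 35 rose, against 30 without it, and the interaction was positive for 26. Ifit3 changed by 1.19 with FK506 (interaction 1.97 ± 0.19, adjusted p = 4.46e-05), Irf7 by 0.23 (1.35 ± 0.12), Oas2 by 0.03 (1.36 ± 0.09) and Slfn5 by 0.44 (1.67 ± 0.13). Ifi205 still rose with FK506, with levels of 9.12, 9.31 and 9.28 at 4 h, against 6.59, 6.58 and 6.80 at 2 h (2.59, interaction 1.36 ± 0.22). Cxcl9 reached 6.17, 6.06 and 6.08 at 4 h with FK506, against 5.91, 5.93 and 6.03 at 2 h (0.14, interaction 2.65 ± 0.12, adjusted p = 3.8e-08), so these arrays barely moved. High interaction values were also found for Olr1 (2.97 ± 0.12), Abhd12b (2.84 ± 0.09) and Scnn1g (2.62 ± 0.10), each with a change of at most 0.37 with FK506. The 2 h levels of Olr1 and Abhd12b were under the lower quartile, and those of Scnn1g were near it. The sizes and order of these interaction values are therefore uncertain. Csf2 was at −0.02 with FK506 (interaction 1.27 ± 0.19), and Cd70 (0.61, interaction 1.24 ± 0.11) and Tnfsf4 (1.01, interaction 1.34 ± 0.13) rose less.

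Other parts of the step did not differ by this test. For Il12b the change was 2.54 with FK506 (interaction −0.35 ± 0.14, adjusted p = 0.212), and Il2 (0.91, interaction 0.22 ± 0.12, 0.342), Tnfsf15 (1.95), Il1rn (1.62), Acod1 (1.46), Ppbp (1.52) and Stat5a (1.15) rose with FK506 too. Of the NRF2 genes 5 of 20 rose with FK506, Hmox1 by 1.28, and the interaction was called for 0. Replication genes fell in 12 of 36 cases with FK506 (median −0.48) and immediate early factors in 11 of 30 (median −0.31). The interaction was called for 0 of the replication genes and for 1 immediate early factor, Klf10 (−0.03 with FK506, interaction −0.85 ± 0.12). Negative interactions mean a more negative change without FK506, and among genes also called between 4 h and 2 h they were largest for Itpkb (−1.38 ± 0.11), Sema7a (−1.33 ± 0.06), Arhgap19 (−1.26 ± 0.06), Hspa1a (−1.07 ± 0.19) and Jarid2 (−1.07 ± 0.10), and Rcan1 (0.08 with FK506, interaction −0.88 ± 0.09) and Ccl7 (−0.68, interaction −0.88 ± 0.08) had them as well. After centring on the unnamed probe sets 118 interactions were positive and 86 negative, and with the covariate 188 and 65.

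**Figure D4:**
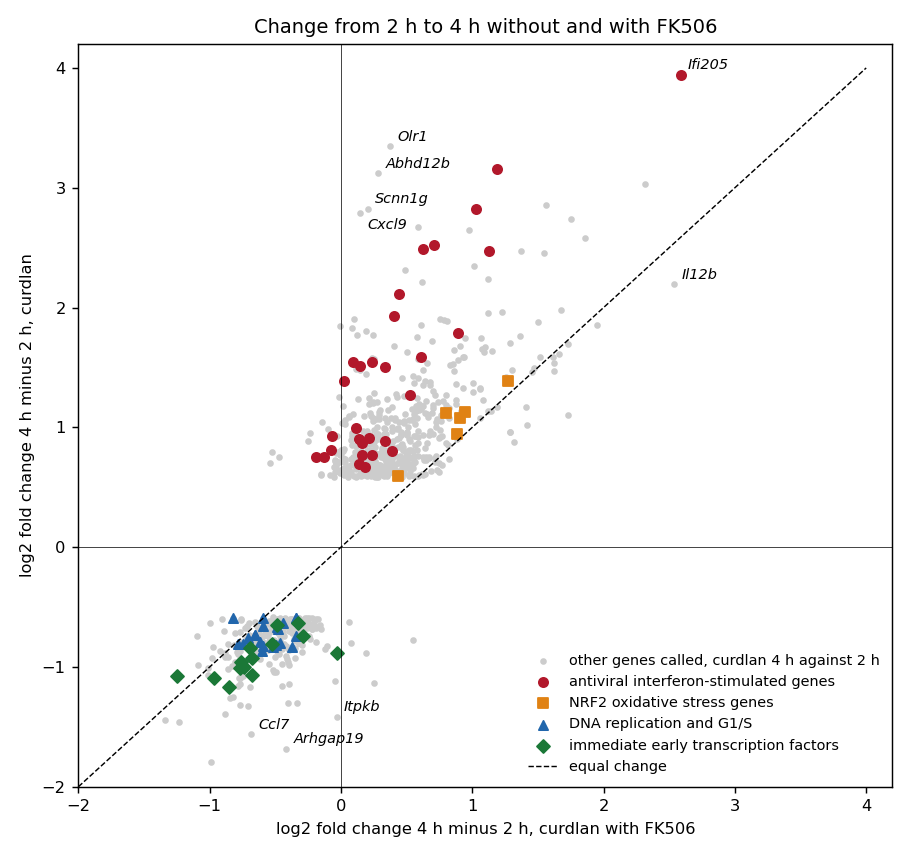
Log2 fold change from 2 h to 4 h with curdlan (vertical axis) against that with curdlan and FK506 (horizontal axis) for the 816 genes called with curdlan, with 4 gene lists coloured and the dashed line at equal change. Since the points were chosen by the vertical axis they lie away from 0 on it, and most ISGs lie far to the left of the line while NRF2, replication and immediate early genes lie nearer to it.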

How the data were processed

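RNA of D1 cells was hybridised to Affymetrix Mouse Gene 1.0 ST arrays, 15 in all and 3 for each of 5 groups. The authors deposited 1 table of log2 values, made in R 2.15.2 (affy package) by RMA, which corrects background, normalizes quantiles and summarises probes, per the labels. RMA normalizes quantiles of the probes, which can remove part of a change shared by most genes, and array medians over all probe sets still ran from 6.45 to 6.57. Array precision is limited by the 3 arrays of each group.

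Of 34760 probe sets 21640 had 1 gene symbol in the platform annotation, 1321 several and 11799 none. Genes with several probe sets (954) were read from the one with the highest mean, which gave 19937 genes. Limma 3.58.1 in R 4.3.3 fitted a mean per group over all 15 arrays, with moderated variances and Benjamini-Hochberg adjustment over all genes. A call needed an adjusted p under 0.05 and a change of at least 1.5-fold. The interaction was the 4 h minus 2 h change without FK506 minus that with it, under the same thresholds. The code was tested on simulated data. The 38 gene lists (835 of 915 genes measured, 7 through an older symbol) and 10 marker lists were written by hand, and the members and lists were chosen with earlier results of these data known. Genes named were the 15 largest rises and falls, up to 4 called members of each list in each direction or the 2 largest where there were none, a fixed set of cytokine, NFAT and control genes, the 5 largest interactions each way, and genes in runs. Further list members are named for completeness and were picked after their values were seen. Promoters came from RefSeq (GRCm38.p6), with an entry for 15561 of the genes. Alternatives were a fit on the curdlan arrays alone, a replicate block, array weights, an intensity trend, 3 other scalings, a filter on low genes, other fold thresholds, the mean of probe sets and each replicate left out. 0 of the 15 columns lacked a sample.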

Additional observations from a re-analysis of the deposited data

Results flagged for a closer look

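For 35 genes, those with the largest changes or interactions, those of the fixed set and those whose interaction is given above, the change from 2 h to 4 h differed between curdlan alone and curdlan with FK506 by the interaction test, and each value here is the change without FK506 minus the change with it, in log2 units. Among interferon-stimulated genes and their regulators these were Ifit3b (2.09), Ifit3 (1.97), Mx2 (1.87), Ifit2 (1.82), Ifit1 (1.80), Ifi205 (1.36), Irf7 (1.35), Ikbke (0.98), Slfn5 (1.67) and Oas2 (1.36). Among cytokines and chemokines they were Cxcl9 (2.65), Cxcl3 (1.67), Csf2 (1.27), Il6 (0.85), Il1f9 (0.71), Il1a (0.66), Tnfsf4 (1.34) and Cd70 (1.24). Other genes with a more positive change without FK506 were Olr1 (2.97), Abhd12b (2.84), Scnn1g (2.62), Olfr1189 (1.30) and Serpinb9b (0.72). A more negative change without FK506 was found for Itpkb (−1.38), Sema7a (−1.33), Arhgap19 (−1.26), Hspa1a (−1.07), Jarid2 (−1.07), Spin4 (−0.97), Esyt3 (−0.90), Rcan1 (−0.88), Ccl7 (−0.88), Nxpe5 (−0.80), Clnk (−0.62) and Klf10 (−0.85). Further genes named above also had called interactions. With 3 arrays in each group, no search for single outlying arrays within a gene was made.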

How the results depend on the processing

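The main counts, 556 higher and 260 lower genes and 246 interactions, depended most on scaling and on the fold threshold. Centring each array on the probe sets without a symbol gave 328 higher and 798 lower genes (29.1% of calls higher, against 68.1%), and with their mean as a covariate 471 were higher and 524 lower (47.3%). These scalings called 204 and 253 interactions. Without a fold threshold 2465 genes were higher, 2726 lower and 872 interactions were called, and limma's treat test against 1.5-fold left 236, 92 and 38, by construction a wider and a stricter call. Leaving out 1 replicate in turn gave 499 to 597 higher and 249 to 290 lower genes and 216 to 255 interactions. Without 2 h replicate 3 and nontreated replicate 1 together, a choice made after seeing the data, 504 genes were higher, 290 lower and 253 interactions called. Of 309 genes followed under these settings, most of them named above, no gene called with or without a setting had opposite signs in the 2. After centring 50 lost their call and 10 gained one, with the covariate 46 and 6, under treat 103 and 0, and without 2 h replicate 3 23 and 3. The median of 17 of 38 lists changed sign after centring, of 12 with the covariate and of 1 after repeated quantile normalization. The cause was not tested.

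The deviations of same-numbered arrays at 4 h and 2 h from their group means correlated at −0.16, 0.18 and 0.03. These values cannot decide whether the replicate number pairs the arrays. Deviations from the mean of so few arrays depend on each other, and the 2 h array that was unlike its group enters all of them. With the number as a replicate block, 555 genes were higher, 260 lower and 234 interactions were called. Signal near background limits low genes, and without genes under the lower quartile of levels 534 were higher and 260 lower.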

Other observations

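Probe sets without a gene symbol, used above to rescale the arrays, were also tested themselves in the same model. Of 11799 such probe sets 714 were higher and 66 lower at 4 h (median change 0.04), and of 1321 with several symbols 36 were higher and 11 lower. Other motifs were searched in the promoters in the same way, on both strands. The kappaB site stood in 8.12% of promoters of genes higher at 4 h and in 4.87% of those of genes lower at 4 h, against 4.95% of all. TGANTCA, a form of the AP-1 site, stood in 10.5% and 6.37%, against 6.89%, and the NFAT core GGAAAA in 22.6% and 19.9%, against 22%. In the promoters of antiviral ISGs GGAAAA, whose letters can overlap the ISRE, stood in 15 of 36 (41.7%), TGANTCA in 7 (19.4%) and the kappaB site in 3 (8.33%), and in those of immediate early factors the kappaB site stood in 7 of 31 (22.6%), GGAAAA in 3 (9.68%) and TGANTCA in 1 (3.23%). In those of replication genes GGAAAA stood in 12 of 40 (30%), the kappaB site in 1 (2.5%) and TGANTCA in 0.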
